A study of Mus musculus with 36 samples.

Results

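The nuclear-encoded subunits of the oxidative phosphorylation machinery were followed in mouse bone cell cultures with and without miR-324. The set was defined by gene name alone: protein-coding genes of the Ndufa, Ndufb, Ndufc, Ndufs, Ndufv, Uqcr, Cox4i, Cox5, Cox6, Cox7, Cox8 and Atp5 series, the Sdha, Sdhb, Sdhc and Sdhd genes and Cyc1, without the Ndufaf assembly factors. It held 87 of the 30205 genes in the data: 36 genes of complex I, 4 of complex II, 9 of complex III, 20 of complex IV and 18 of complex V. Wild-type control and Mir324-null mice, 20 weeks of age, gave 3 kinds of culture with 6 libraries per genotype and kind, 36 libraries in all. The labels call the mutant animals null for the microRNA gene Mir324 and give no further allele. For bone marrow-derived macrophages (BMM), marrow cells were expanded for 3 days with 100 ng/mL M-CSF, the growth factor of the macrophage lineage, and then kept for 5 days in 30 ng/mL M-CSF. Osteoclast cultures (OC) received the same M-CSF for the same 5 days together with 50 ng/mL RANK-L, the cytokine that turns macrophages into bone-resorbing osteoclasts. Osteoblast cultures (OB), of the bone-forming lineage, grew out of bone for 6 weeks and then spent 18 days in 2 mM β-glycerophosphate and 50 µg/mL ascorbic acid. All 6 groups were whole cultures rather than sorted cells, so fewer cells of a type and less RNA per cell cannot be told apart in the values that follow.

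Oxidative phosphorylation takes place at the inner mitochondrial membrane. Complexes I and II feed electrons from NADH and succinate into ubiquinone, complex III passes them to cytochrome c, complex IV hands them to oxygen, and complex V, the ATP synthase, uses the proton gradient built by complexes I, III and IV to make ATP. A few subunits of complexes I, III, IV and V are encoded by mitochondrial DNA, and the others by nuclear genes. Osteoclasts are rich in mitochondria, and the coactivator PGC-1β, product of Ppargc1b, is known to take part in mitochondrial biogenesis as they form.

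Libraries held 14118972 to 26347581 estimated counts, of which the 87 genes took between 0.88% and 2.25%. The level of miR-324 itself was not analysed here, so these data hold no direct check of the genotype. Osteoclast markers (10 genes, among them Ctsk, Acp5 and Calcr) summed to 30453–32659 CPM in wild-type OC and to 424–773 CPM in null OC, where Calcr was at 0. CPM is the count scaled to library size with TMM factors over the 36 libraries. The 8 macrophage markers summed to 4817–5316 CPM in wild-type OC and 10238–13730 CPM in null OC. By this measure the null cultures labelled OC carried macrophage markers and few osteoclast transcripts. Osteoblast markers summed to 54066–78176 CPM in wild-type OB and 96321–115913 CPM in null OB. The OB cultures also held osteoclast-marker transcripts, with median sums of 4909 CPM in wild type and 5848 CPM in null. The labels tie no library to a single animal, so p-values measure the spread between libraries, which may be technical.

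The subunit genes stood highest in wild-type osteoclast cultures. On the TPM scale, which is per transcript length and library total and so allows genes to be added, the 87 genes summed to 43771, 50692 and 54604 TPM (lowest, median and highest of 6 libraries) in wild-type OC. Wild-type BMM reached 23208, 23744 and 24465 TPM, and null OC 22834, 25731 and 28929 TPM. Every wild-type OC library lay above all 30 libraries of the other groups, whereas null OC overlapped the macrophages of both genotypes. The sums in null BMM were 26271, 29767 and 33547 TPM, above those of wild-type BMM without overlap. Wild-type OB gave 34645, 36790 and 37772 TPM, and null OB 31845, 33341 and 34504 TPM, a pair of ranges that lie side by side without touching. Without the gene Ndufa4l2 the OB sums were 33110–36404 TPM in wild type and 30662–33555 TPM in null, and these ranges overlap. None of these sums is corrected for the trends on transcript length described below for BMM and OB. Counting genes by the group with their highest median TPM, 67 of the 87 peaked in wild-type OC, 15 in wild-type OB, 1 in null BMM and 1 in null OB, while 3 had a median of 0 in every group.

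Each complex had its highest median in wild-type OC. Complex I had a median of 8450 TPM in wild-type BMM and 15436 TPM in wild-type OC, against 9068 TPM in null OC. Complex II, the succinate dehydrogenase, had medians of 963, 2328 and 1043 TPM in the same groups. For complex III the medians were 3097, 8274 and 3571 TPM, and for complex V they were 5529, 12914 and 5818 TPM. For complex IV, cytochrome c oxidase, the sums of 9638–12796 TPM in wild-type OC overlapped the 9409–10476 TPM of wild-type OB. That overlap rested on 1 gene, since without Ndufa4l2 the wild-type OB sums were 7874–8856 TPM, below every wild-type OC library. Complex II differed from the others in OB: its sums of 993–1169 TPM in wild-type OB came close to the 942–1006 TPM of wild-type BMM and overlapped them. Its median was also higher in null OB (1154 TPM) than in wild-type OB (1072 TPM), with overlapping ranges, while that of the other 4 complexes was lower. In CPM the complex II median was lower in null OB (831 CPM) than in wild-type OB (856 CPM), again with overlap, so this direction depends on the scale.

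**Figure D1:**
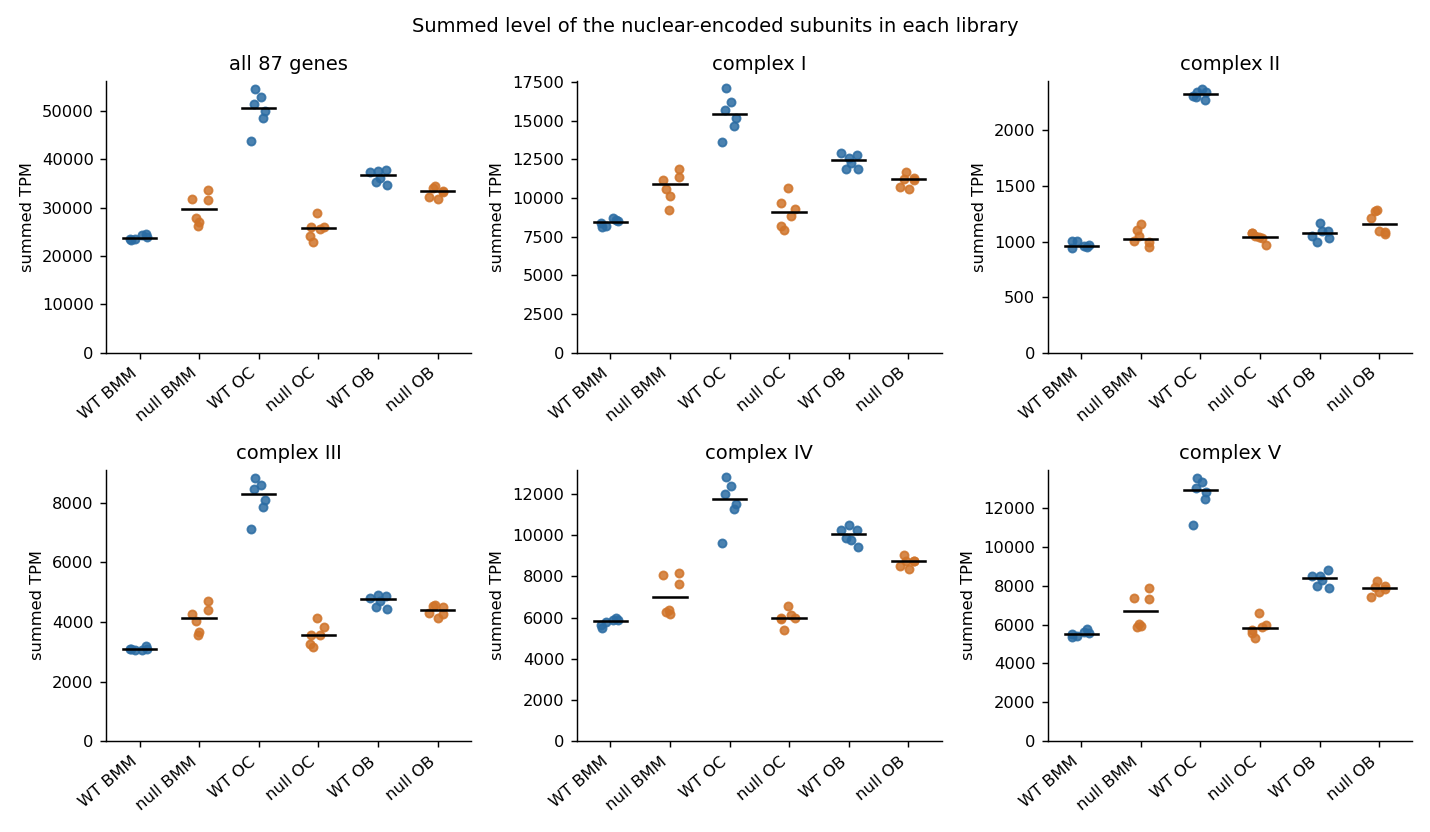
Summed TPM (vertical axis from 0) of all 87 genes and of each complex, one point per library and a bar at the median of the 6 libraries of each group. Wild-type OC, with a median of 50692 TPM over all 87 genes, lies above the other groups, and null OC (median 25731 TPM) overlaps the range of the macrophage cultures.

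The first comparison asked how the subunit genes responded to RANK-L in wild-type cells. Of the 81 members with enough counts to be tested, 76 were higher in OC than in BMM, 2 were lower and 3 passed in neither direction. Over all genes tested, 30.4% were higher and 30.1% lower, 60.5% together, by the same rule (adjusted p under 0.05, edgeR's quasi-likelihood test with Benjamini-Hochberg adjustment). The members' median log2 fold change was 0.92, beside 0.00 for all genes tested. By complex, higher calls covered 34 of 36 tested genes of complex I, 4 of 4 of complex II, 9 of 9 of complex III, 13 of 15 of complex IV and 16 of 17 of complex V. The medians were 0.79, 1.24, 1.25, 0.90 and 0.97 on the log2 scale. Within complex I, the 7 nuclear core subunits, which carry the flavin and the iron-sulfur clusters, had a median of 1.12, and the 29 accessory subunits one of 0.72. In the same comparison 10 of 10 osteoclast markers and 7 of 8 proliferation markers were higher and 8 of 8 macrophage markers lower, and their part in the subunit response was not tested.

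Cyc1, the cytochrome c1 haem protein of complex III (GRCm38 chr15:76343523-76346260, plus strand), rose most among the well-expressed members. Its CPM values were 86.7, 91.5 and 102 (lowest, median, highest) in wild-type BMM and 403, 421 and 440.5 in wild-type OC. The groups are far apart, at a log2 difference of 2.18 (SE 0.08, edgeR adjusted p = 3.86e-19), or 4.53-fold. Its partner Uqcrfs1, the Rieske iron-sulfur protein (chr13:30540308-30545362, minus strand), ran from 107 through 119 to 129 CPM in BMM and from 336 through 383 to 399 CPM in OC. Again no library of one group entered the range of the other, and the log2 difference came to 1.67 (SE 0.06, adjusted p = 1.03e-18). Both proteins sit on the electron path from ubiquinol to cytochrome c.

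In complex I, Ndufv1, which binds NADH and the flavin, was measured at 56.9, 58.0 and 62.6 CPM in wild-type BMM and at 191, 198 and 209 CPM in wild-type OC. This was a log2 difference of 1.75 (SE 0.07, adjusted p = 5.06e-18), with the ranges well separated. Other core subunits rose by less, among them Ndufs1, the largest iron-sulfur subunit, by 1.19, Ndufv2 by 1.12, Ndufs7 by 0.79, Ndufs3 by 0.70 and Ndufs8 by 0.42 on the log2 scale. For Ndufs8 the CPM values were 96.0, 102 and 116 in BMM and 113, 143 and 149 in OC, so 1 low OC library reached into the BMM range. The accessory subunits Ndufa2 (log2 fold change 0.20, adjusted p = 0.266) and Ndufa7 (0.01, adjusted p = 0.962) did not pass the test. Ndufa7 had medians of 90.1 CPM in BMM and 90.2 CPM in OC. With a correction that removes each library's trend on transcript length and GC content (the length-GC offset) its value was -0.19 (adjusted p = 0.0262), so its direction depends on that choice. Over the members this offset gave 76 higher and 3 lower in wild-type OC, with a smaller median of 0.75. Of all 12661 genes tested, 3994 were higher and 3830 lower with it.

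Complex II has only nuclear-encoded subunits. Sdha, the flavoprotein that oxidises succinate, went from 287, 293 and 299 CPM in wild-type BMM to 693, 732 and 756 CPM in wild-type OC. The ranges did not overlap, and the log2 difference came to 1.31 (SE 0.06). The iron-sulfur subunit Sdhb rose by 1.24 and the membrane anchors Sdhc and Sdhd by 0.94 and 1.25. In complex V, Atp5g3, which encodes the membrane c subunit that turns with the rotor, was at 85.7, 90.4 and 97.4 CPM in BMM and at 282, 316 and 335 CPM in OC. Its log2 fold change was 1.78 (SE 0.11, adjusted p = 2.33e-14), the largest of the ATP synthase genes tested. The catalytic β subunit gene Atp5b rose by 1.5 and the α subunit gene Atp5a1 by 1.20. Of the tested genes counted with complex V, only Atp5s did not pass (0.09, adjusted p = 0.642). Atp5s is counted there by its name alone, and its RefSeq symbol is Dmac2l.

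The members that moved against the others were both tissue isoforms of complex IV. Cox4i2, the isoform of subunit 4 known from lung and from hypoxic cells, was low in BMM (0.486, 0.856 and 1.57 CPM) and lower in OC (0.056, 0.186 and 0.298 CPM), a log2 difference of -2.28 (SE 0.43, adjusted p = 3.92e-05). Cox6a2, the heart and muscle isoform of subunit 6a, had values of 0.697, 1.22 and 1.44 CPM in BMM and 0.315, 0.545 and 0.824 CPM in OC, at a log2 difference of -1.03 (SE 0.28, adjusted p = 0.00206). Both are at about 1 CPM, so few reads lie behind these values. The common isoform Cox4i1 rose by 0.65 (SE 0.10), from a median of 409 CPM to one of 648 CPM.

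The null cultures given RANK-L showed little of this. Of 81 members tested, 1 was higher in null OC than in null BMM, 21 were lower and 59 passed in neither direction, with a median log2 fold change of -0.26. Among all genes, 6.78% were higher and 6.07% lower. Cyc1 was at 125, 133 and 151 CPM in null BMM and at 120, 144 and 170 CPM in null OC. The ranges overlap, and the log2 fold change of 0.09 did not pass (adjusted p = 0.456). Uqcrfs1 had medians of 110 CPM in null BMM and 103 CPM in null OC, at a log2 difference of -0.06 (adjusted p = 0.54). The single higher member was Uqcrc1, a core protein of complex III, at 0.20 (SE 0.06, adjusted p = 0.0391). The lower members with the largest changes were Atp5k, Uqcrh and Atp5mpl, small subunits of complexes V, III and V, at -0.56, -0.51 and -0.49. With the length-GC offset Uqcrc1 (0.14, adjusted p = 0.131), Uqcrh (-0.20, adjusted p = 0.138) and Atp5mpl (-0.03, adjusted p = 0.832) no longer passed. The same 3 calls were lost without a count filter (adjusted p = 0.0673, 0.0621 and 0.0655). Single libraries ended them too: null BMM replicate 2, 3, 4 or 6 or null OC replicate 3 or 6 for Uqcrc1, null BMM replicate 2, 3 or 4 or null OC replicate 1, 2, 3 or 5 for Uqcrh, and null BMM replicate 2, 3 or 4 or null OC replicate 1, 2, 4 or 5 for Atp5mpl (adjusted p between 0.0505 and 0.124).

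The count of 21 lower members rests on single libraries. Leaving out null BMM replicate 1, 5 or 6 or null OC replicate 6 gave 43, 32, 38 and 40, and leaving out null BMM replicate 2, 3 or 4 or null OC replicate 2, 3 or 4 gave 7, 7, 9, 11, 13 and 13. With the length-GC offset, 6 members were lower, with a median of -0.06, beside 549 lower of all 12661 genes tested. Across the 81 members the fold change correlated with transcript length at a Spearman rho of 0.71, and across all genes tested at 0.23.

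The difference between the genotypes in their response to RANK-L was tested directly as an interaction. Of the 81 members, 78 had a lower response in the null cultures, 1 a higher one and 2 passed in neither direction, beside 26.1% lower and 25.3% higher, 51.4% together, over all genes tested. The members' median was -1.20 on the log2 scale. The lower response covered 36 of 36 tested genes of complex I, 4 of 4 of complex II, 9 of 9 of complex III, 13 of 15 of complex IV and 16 of 17 of complex V. With the length-GC offset 75 members had a lower response and 1 a higher one, and the median was smaller in size, at -0.84. Of all 12661 genes tested, 3305 were lower and 3074 higher with it. The genes with the smallest p were Uqcrfs1 (-1.73, SE 0.09, adjusted p = 2.12e-15), Cyc1 (-2.09, SE 0.11, adjusted p = 2.97e-15) and Ndufv1 (-1.86, SE 0.10, adjusted p = 4.84e-15). The one higher member was Cox4i2 (1.68, SE 0.65, adjusted p = 0.0328), which passed no longer without a count filter (adjusted p = 0.0695). The call was also lost when any one of 9 libraries was left out: wild-type BMM replicate 4, null BMM replicate 1, 2 or 6, wild-type OC replicate 4 or 5, or null OC replicate 2, 3 or 5 (adjusted p between 0.0502 and 0.0709). Beside this, 7 of 10 osteoclast markers were higher in null OC than in null BMM, with a median of 1.15, and their sum of 424–773 CPM was far under the 30453–32659 CPM of wild-type OC. Their part in the interaction was not tested.

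**Figure D2:**
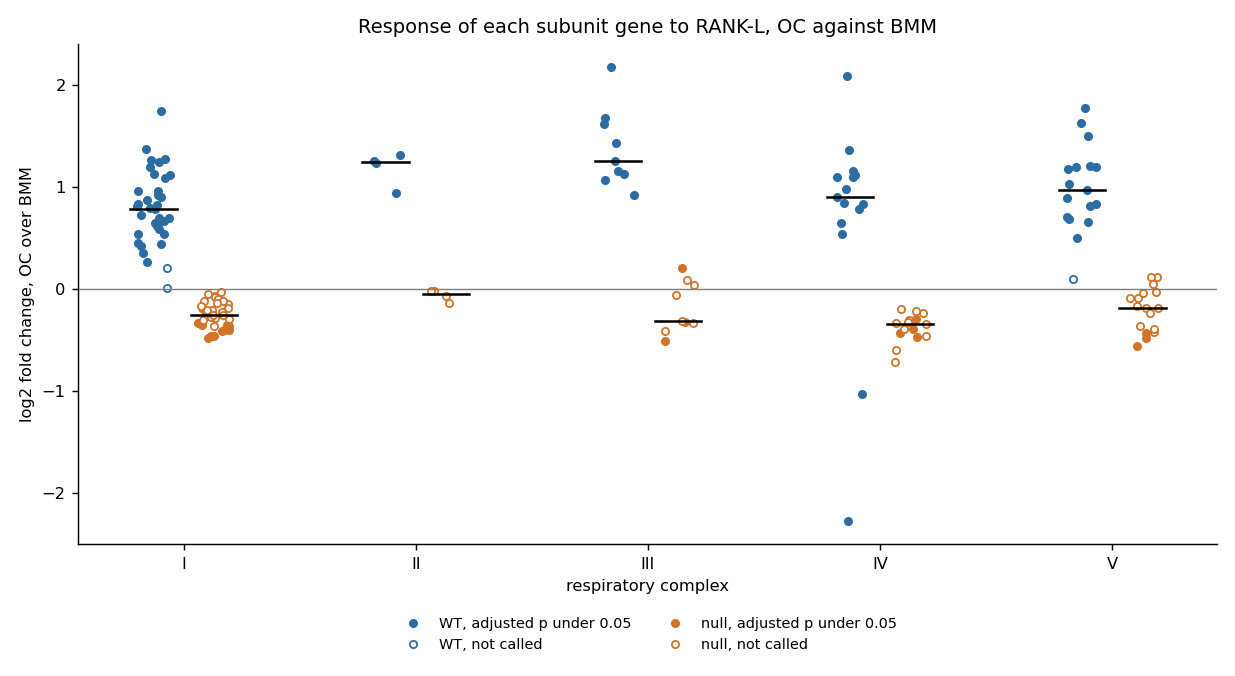
Log2 fold change of each tested subunit gene in OC over BMM, by respiratory complex, in wild-type and in null cultures. Filled points passed adjusted p under 0.05 and open points did not: the wild-type points lie mostly above 0 (76 of 81 higher, median 0.92), and the null points lie around or a little under 0 (21 of 81 lower, median -0.26).

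Because members of all 5 complexes moved together, promoter sequence is shown for some responding genes of complexes II, III, IV and V. The choice does not follow the size of the response, and no gene of complex I is shown. RefSeq promoters (GRCm38.p6, 250 bases before to 50 after the start) were found for 69 member genes with 74 promoters, and 4 motifs linked in textbooks to mitochondrial genes were searched on both strands. The NRF1 motif was in 24.3% of the member promoters (18 of 74) and in 4.60% of all 32851 promoters of that length. For the ETS motif CCGGAAG these shares were 21.6% and 8.86%, and for the YY1 motif AAGATGGCG they were 9.46% and 1.4%. The ESRRA motif TCAAGGTCA was in 2 member promoters, those of Atp5g3 and Sdhd (2.70%), and in 0.423% of all promoters. A match describes the letters in this window only. The stretches below lie upstream of the annotated start and outside annotated exons, are written 5′ to 3′ on the gene's own strand, and carry a motif match in capitals where there is one: an ESRRA match on the reverse strand in Atp5g3 (chr2:73911327-73911446, minus), an ETS match on the reverse strand in Sdhd (chr9:50603850-50603909, minus) and an NRF1 match on the reverse strand in Sdha (chr13:74350281-74350308, minus). The stretches of Uqcrfs1 (chr13:30545363-30545482, minus) and Cox7a1 (chr7:30184024-30184143, plus) hold none of the 4 motifs. The promoters of Ndufv1 and Atp5b, which rose more than Sdha and Sdhd in wild-type OC, are not shown and held none of them.
Atp5g3: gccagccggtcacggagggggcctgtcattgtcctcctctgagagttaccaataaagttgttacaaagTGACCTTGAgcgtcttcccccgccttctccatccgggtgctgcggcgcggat
Sdhd: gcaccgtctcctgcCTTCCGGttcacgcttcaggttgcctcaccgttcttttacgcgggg
Sdha: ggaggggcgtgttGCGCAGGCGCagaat
Uqcrfs1: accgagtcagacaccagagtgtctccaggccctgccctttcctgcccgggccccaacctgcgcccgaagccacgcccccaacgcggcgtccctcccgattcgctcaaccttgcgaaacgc
Cox7a1: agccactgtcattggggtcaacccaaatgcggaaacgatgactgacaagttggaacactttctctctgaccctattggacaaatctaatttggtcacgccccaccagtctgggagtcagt
The 3 genes shown with a match and the 2 shown without one were all higher in wild-type OC than in BMM and all lower in null OC than in wild-type OC.

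Other genes of the pathway were read from lists that hold no member. The 13 protein-coding genes of mitochondrial DNA, which supply the remaining subunits, were all higher in wild-type OC than in BMM (median log2 fold change 0.93), and 0 were higher and 10 lower in the null cultures given RANK-L (median -0.41). Of 20 other mitochondrial genes, such as carriers, chaperones and cytochrome c, 20 were higher in wild type (median 1.04), among them the ADP/ATP carrier Slc25a4 at 1.27 and the chaperone Hspa9 at 1.22. Of 45 tested assembly factors, 28 were higher and 1 lower, with a median of 0.46 beside the subunits' 0.92. Among regulators of mitochondrial biogenesis, 5 of 12 tested were higher and 0 lower. Ppargc1b, which encodes PGC-1β, had 4.80, 6.68 and 8.80 CPM in wild-type BMM and 71.9, 72.8 and 88.9 CPM in wild-type OC, a log2 difference of 3.50 (SE 0.15, edgeR adjusted p = 1.91e-17) with the groups far apart. In null cultures the same gene had medians of 9.65 CPM in BMM and 7.89 CPM in OC (log2 fold change -0.25, adjusted p = 0.265), and the interaction was -3.76 (adjusted p = 1.48e-14). Tfam, which packages mitochondrial DNA and helps its transcription to start, and Esrra, the nuclear receptor partner of PGC-1β, rose by 0.59 and 0.58 in wild type.

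Within the osteoclast cultures, null libraries had lower levels of most subunit genes. Of 80 members tested, 73 were lower in null OC than in wild-type OC, 1 was higher and 6 passed in neither direction, with a median log2 fold change of -0.77. Over all genes, 33.1% were lower and 32.4% higher, 65.6% together, with a median of -0.03. With the length-GC offset 71 members were lower and 4 higher, with a median of -0.64, beside 4030 lower and 3999 higher of all 12121 genes tested. The comparison of null with wild-type OC shares its wild-type OC libraries with the wild-type RANK-L comparison above, so the pair is not independent. By complex, 31 of 36 genes of complex I, 4 of 4 of II, 9 of 9 of III, 13 of 14 of IV and 16 of 17 of V were lower, with medians of -0.61, -1.11, -1.32, -0.76 and -0.78.

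Uqcrfs1 had the largest fall among the members of complex III, from 336, 383 and 399 CPM in wild-type OC to 100, 103 and 114 CPM in null OC (log2 fold change -1.83, SE 0.06, edgeR adjusted p = 7.5e-14). Atp5g3 fell from a range of 282–335 CPM to one of 75.0–99.1 CPM (-1.83, SE 0.08, adjusted p = 2.47e-12), and Uqcrc2, a core protein of complex III, from 310–347 CPM to 89.4–117 CPM (-1.66, SE 0.06, adjusted p = 6.68e-13). For each of these 3 genes the null OC range overlapped that of macrophages of either genotype. The 7 core subunits of complex I were all lower, with a median of -1.15, as were 24 of 29 accessory subunits, with a median of -0.52. Ndufs1 fell by 1.46, Ndufv1 by 1.43, Sdhd by 1.29, Sdha by 1.15 and Atp5b by 1.35 on the log2 scale.

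In complex IV, Ndufa4, which was long counted with complex I and is now placed in cytochrome c oxidase, fell by 1.19 (SE 0.14), from a median of 269 CPM to one of 117 CPM, and Cox4i1 fell by 0.66 (SE 0.07). Cox7a1, the muscle isoform of subunit 7a, fell from 7.29, 9.63 and 11.3 CPM to 1.58, 2.20 and 4.58 CPM (-1.98, SE 0.22, adjusted p = 5.32e-07). Its groups did not overlap, and the highest null value came from 1 library. The one higher member was Cox6a2, which had been lower in wild-type OC than in BMM, at 1.12 (SE 0.30, adjusted p = 0.00379) and a level of about 1 CPM. The 6 members with no call were Atp5s, Ndufa11, Ndufa13, Ndufa2, Ndufa3 and Ndufa7, of which the last 5 are accessory subunits of complex I. The mitochondrially encoded genes were lower in 13 of 13 cases (median -1.09), the other mitochondrial genes in 19 of 20 (median -0.97), and the assembly factors in 29 of 45, with 5 higher. Ppargc1b was lower by 3.30 on the log2 scale (adjusted p = 4.72e-12) and Esrra did not pass (0.15). Osteoclast markers were lower for 10 of 10 genes (median -6.66) and macrophage markers higher for 7 of 8 in the same comparison, and their part in the subunit differences was not tested.

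In macrophages, cultured in parallel without RANK-L, the difference between genotypes ran the other way. Of 81 members tested, 60 were higher in null BMM than in wild-type BMM, 3 were lower and 18 passed in neither direction, with a median log2 fold change of 0.43. Among all genes tested 27.0% were higher and 25.4% lower, 52.3% together. Complex I had 31 higher and 2 lower of 36, and complex IV 12 higher and 1 lower of 15. Complexes II, III and V had 2 of 4, 4 of 9 and 11 of 17 higher and 0 lower. Accessory subunits of complex I were higher in 27 of 29 cases (median 0.46), and the core subunits in 4 of 7 with 2 lower (median 0.29). With the length-GC offset 17 accessory subunits were higher and 1 lower (median 0.25). Of the core subunits 4 were higher and 2 lower with it (median 0.13).

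Atp5k, a small membrane subunit of the ATP synthase, had 39.5, 47.2 and 50.6 CPM in wild-type BMM and 65.3, 83.8 and 115 CPM in null BMM. The groups did not overlap, at a log2 difference of 0.88 (SE 0.13, adjusted p = 5.66e-05). Ndufa13 (0.87, SE 0.10) rose from a median of 136 CPM to one of 257 CPM, and Uqcrq (0.86, SE 0.11) from 114 CPM to 206 CPM. Ndufa13 shares sequence with the gene Tssk6, so its counts could be split by the quantification. Cyc1 was higher by 0.58 (SE 0.07), with every null library, at 125–151 CPM, above the wild-type range of 86.7–102 CPM. Uqcrfs1 (-0.08, adjusted p = 0.323) and Atp5b (0.05, adjusted p = 0.564) did not pass. Uqcrfs1 was called lower with the length-GC offset (-0.16, adjusted p = 0.0158) and with limma on TPM (-0.23, adjusted p = 0.00575).

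The lower members in null BMM were Ndufs8, Ndufs1 and Cox4i2. Ndufs8, which carries a pair of iron-sulfur clusters near the quinone site of complex I, was at 96.0, 102 and 116 CPM in wild-type BMM and at 56.3, 66.1 and 70.0 CPM in null BMM, without overlap (-0.67, SE 0.07, adjusted p = 9.43e-07). Ndufs8 was lower in the null libraries of the other cultures too: the wild-type and null medians were 143 CPM and 59.2 CPM in OC and 71.6 CPM and 61.8 CPM in OB. In OB, unlike BMM (-0.87), no difference was left with the length-GC offset (0.00, adjusted p = 0.969). Ndufs1 differed by -0.23 (SE 0.07, adjusted p = 0.00786), with null values of 63.0–77.3 CPM just under the wild-type 77.8–86.7 CPM. Cox4i2 differed by -1.53 (SE 0.36, adjusted p = 0.00201) at under 2 CPM. In the same comparison 6 of 8 proliferation markers were higher and 0 lower, and 5 of 8 macrophage markers were lower and 2 higher. Neutrophil markers had a median sum of 0.284 CPM in wild-type BMM and 10.7 CPM in null BMM. Only 1 of these 8 markers had enough counts to be tested, and it was higher. S100a9, Elane, Ltf and Retnlg were at 0 in every null BMM library, so the sum does not stand for the whole list. The part of all these markers in the subunit differences was not tested. With the length-GC offset 43 members were higher and 8 lower, with a median of 0.17, beside 3253 higher and 3058 lower of all 11925 genes tested. Across the 81 members the fold change correlated with transcript length at a Spearman rho of -0.56, and across all genes tested at -0.20.

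**Figure D3:**
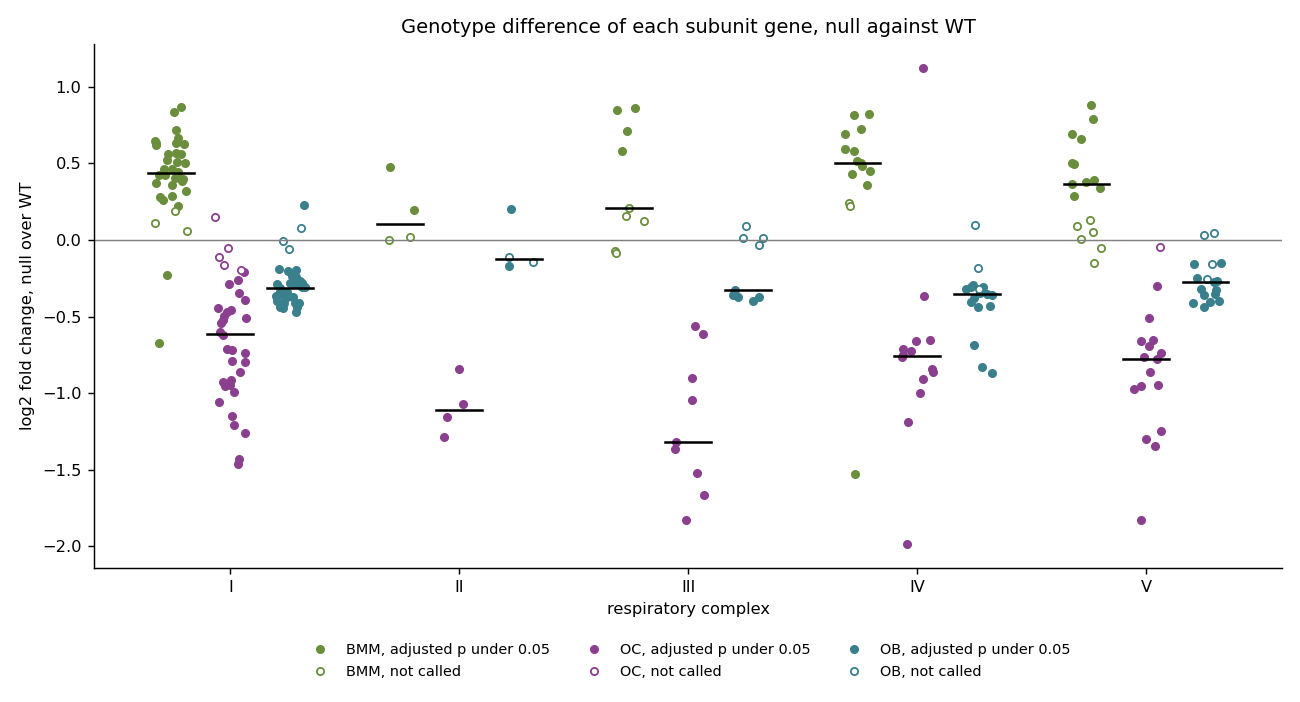
Log2 fold change of each tested subunit gene in null over wild-type libraries, by complex, for the 3 culture types. Filled points passed adjusted p under 0.05: points lie mostly above 0 in BMM (60 of 81 higher), below 0 in OC (73 of 80 lower) and slightly below 0 in OB (65 of 83 lower, a direction lost with the length-GC offset).

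In osteoblast cultures the differences were smaller and, as in BMM, followed transcript length. Of 83 members tested, 65 were lower in null OB than in wild-type OB, 2 were higher and 16 passed in neither direction, with a median log2 fold change of -0.32, beside 16.9% lower and 15.5% higher over all genes. Members are short genes, with a median transcript length of 690 bases among those tested, beside 2452 bases for all genes tested. Across the 83 members the fold change correlated with length at a Spearman rho of 0.61, and across all genes tested at 0.55, as a description over genes that share the same libraries. With the length-GC offset, fitted over all genes, 6 members were lower and 11 higher, and the median was 0.02, so the lower direction of the family did not hold there. In that setting 1206 of all 13607 genes tested were lower and 1083 higher. On the TPM scale 36 members were lower and 7 higher, with the median of all genes shifted by 0.14. Of all 13607 genes, 950 were lower and 4067 higher on that scale.

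Among members averaging at least 10 CPM, Ndufa4l2 had the largest difference in OB, and it stayed lower with the offset. Its CPM values were 722, 867 and 1046 in wild-type OB and 430, 545 and 626 in null OB, ranges that did not overlap (log2 fold change -0.69, SE 0.10, edgeR adjusted p = 0.000186). With the length-GC offset the difference was -0.45 (adjusted p = 0.00632). The gene, a paralogue of Ndufa4 known as a target of hypoxia-inducible factor, lies at chr10:127514967-127517154 on the plus strand. Ndufb4 went from 83.3, 93.1 and 105 CPM to 61.0, 68.0 and 76.0 CPM (-0.47, SE 0.07, adjusted p = 0.000247), and was at -0.20 (adjusted p = 0.0296) with the offset. Ndufa6 went from 112–138 CPM to 83.8–101 CPM (-0.45, SE 0.06, adjusted p = 0.00013), but with the offset it was at -0.07 (adjusted p = 0.454). At 5 CPM or less, the tissue isoforms Cox6b2 (-0.83, SE 0.17, adjusted p = 0.00205) and Cox6a2 (-0.87, SE 0.27, adjusted p = 0.0237) were lower, and neither passed with the offset (adjusted p = 0.0881 and 0.222). The higher members were the long genes Ndufs1 (0.23, SE 0.06, adjusted p = 0.00845) and Sdha (0.20, SE 0.05, adjusted p = 0.00883), with offset values of 0.26 and 0.20. Sdha did not pass with limma on TPM (0.46, adjusted p = 0.0592) or with an average length offset (0.32, adjusted p = 0.192). Mitochondrially encoded genes were lower for 7 of 13 and higher for 0 (median -0.20), and with the offset 0 were lower and 3 higher. Osteoblast markers were higher for 6 of 10, osteoclast markers higher for 5 of 10 and lower for 0 (median 0.36), and macrophage markers lower for 5 of 8, and their part in the subunit values was not tested.

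**Figure D4:**
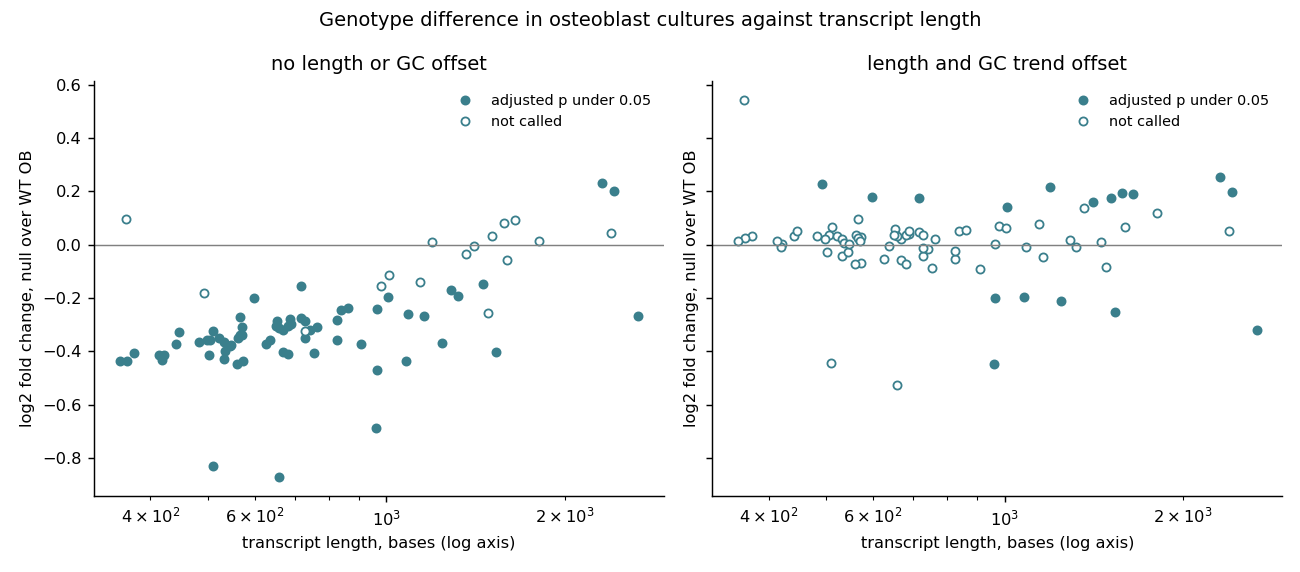
Log2 fold change of each tested subunit gene in null over wild-type OB against transcript length (log axis, bases), without and with the length-GC offset. Without the offset short genes lie lowest (65 of 83 lower), and with it the points scatter around 0 (6 lower, 11 higher).

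Whether the genotype difference in OB differed from that in OC was tested as a second interaction. Of 83 members, 53 had a higher null-over-wild-type difference in OB than in OC, 3 a lower one and 27 passed in neither direction, beside 27.8% and 27.4% over all genes, with a median of 0.44. The genes with the smallest p were Uqcrfs1 (1.81, SE 0.09, adjusted p = 9.77e-20), Uqcrc2 (1.69, SE 0.08) and Sdha (1.37, SE 0.07). Core subunits of complex I were called higher in 6 of 7 cases (median 0.99) and accessory subunits in 11 of 29 (median 0.20). With the length-GC offset the counts over all members were 68 higher and 5 lower, with a median of 0.61. Of all 14268 genes tested, 3965 were higher and 3969 lower in that setting. On the TPM scale 70 members were higher and 3 lower, with the median of all genes at 0.30. There 6627 of all genes were higher and 2131 lower. The number of members without a call therefore depends on the processing.

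Wild-type OB were then set beside wild-type BMM and OC. Against BMM, 70 of 83 members were higher in OB and 4 lower (median 0.53), with 44.2% and 37.4%, 81.6% together, over all genes. Against OC, 15 were higher and 55 lower (median -0.35), with 44.6% and 38.1% over all genes. Cyc1 was at 115, 127 and 156 CPM in wild-type OB, above BMM and far below OC (-1.64 against OC, SE 0.06). Ndufs1 stood lower in OB than in both other cultures, at 58.8, 67.1 and 70.5 CPM, with log2 fold changes of -0.28 against BMM and -1.45 against OC. Ndufa7, which did not pass in wild-type OC against BMM, was higher in OB than in OC by 0.69 (SE 0.06), at 131, 140 and 153 CPM. With the length-GC offset, 47 members were higher and 18 lower against BMM (median 0.18), and 7 higher and 69 lower against OC (median -0.67). Of all 13660 genes tested, 5904 were higher and 5128 lower against BMM with the offset, and 5877 higher and 5481 lower against OC. Osteoclast markers were higher in OB than in BMM for 10 of 10 genes (median 6.68) and lower than in OC for 10 of 10 (median -2.92). Macrophage markers were lower than in BMM for 8 of 8, and lower than in OC for 5 of 8 and higher for 3. Proliferation markers were lower for 6 of 8 against BMM and 8 of 8 against OC, and the part of these markers in the subunit differences was not tested.

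The choice of isoform set the osteoblast cultures apart most. Ndufa4l2 was at 0 to 0.229 CPM in wild-type BMM and 0 to 0.105 CPM in wild-type OC, and at 722 to 1046 CPM in wild-type OB, so no fold is given. In TPM it reached 1368, 1628 and 1984 in wild-type OB, which made it the highest of the members there, at 4.47% of the sum of the members' median TPM. In wild-type OC the highest was Cox4i1, at a median of 1795 TPM and 3.55% of that sum. Cox4i2 was at 54.0, 57.8 and 63.0 CPM in wild-type OB and under 2 CPM in each BMM and OC library of either genotype. Cox7b2 and Cox8b were at 0 in all BMM and OC libraries, and Cox8c was at 0 in all 36 libraries.

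Isoform shares were computed per library as the TPM of the tissue isoform over the sum with its common partner, and compared by exact two-sided permutation tests adjusted over 24 comparisons. Ndufa4l2 made up a mean of 72.8% of the Ndufa4 and Ndufa4l2 sum in wild-type OB and 65.4% in null OB (n = 6 each, exact permutation p = 0.013, adjusted p = 0.0346). The ranges, 66.8–77.3% and 57.3–69.0%, overlap, and the call is lost when any one of 9 of the 12 libraries is left out. Cox7a1 rose as a share of subunit 7a from 8.06% in wild-type BMM to 14.7% in wild-type OC, without overlap (exact permutation, adjusted p = 0.00866), and was 6.97% in null OC (adjusted p = 0.00866 against wild-type OC). The raw p of 0.00216 behind both values is the smallest that 6 against 6 libraries can give. In OB its share was 13.3% in wild type and 17.7% in null (exact permutation, adjusted p = 0.0708). Cox4i2 made up 11.4% and 11.2% of subunit 4 in wild-type and null OB (exact permutation, adjusted p = 1) and 0.230% or less on average in wild-type and null BMM and in wild-type OC. Cox6a2 had shares under 1% in these cultures, at 0.142% in wild-type OC and 0.485% in null OC (exact permutation, adjusted p = 0.00866).

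**Figure D5:**
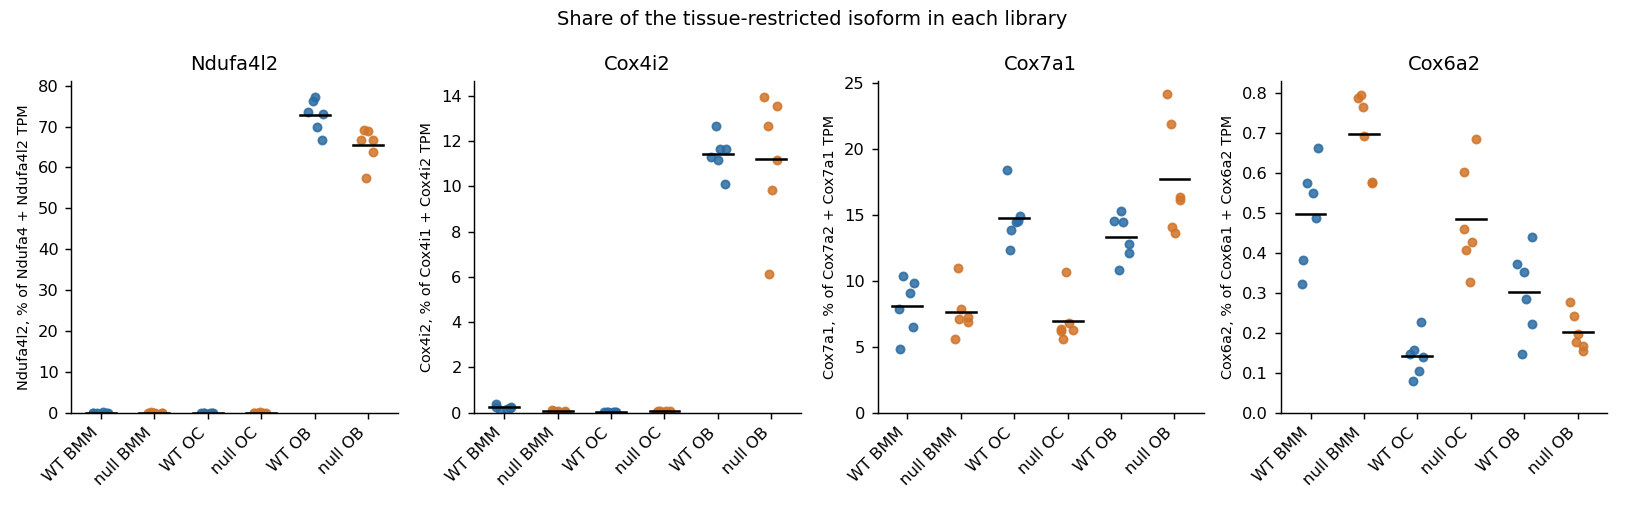
Share of the tissue isoform in the summed TPM of its isoform pair (percent, axis from 0), one point per library with a bar at the group mean. Ndufa4l2 and Cox4i2 lie near 0 in BMM and OC and at means of 72.8% and 11.4% in wild-type OB, while Cox7a1 is at 14.7% in wild-type OC and 6.97% in null OC.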

How the data were processed

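Each library was deposited by the authors as a table of transcripts with an estimated count and a TPM value, per the file headers. The submitters' processing notes name kallisto, DESeq2 and the build GRCh38, with no versions or roles. The transcript identifiers are those of mouse, and 97.5% of the 88198 listed were matched here to GENCODE M21 (GRCm38), while the unmatched ones held 0.63% to 0.97% of the counts of a library. Deposited estimated counts were summed per gene and rounded to whole numbers, giving 30205 genes and 14118972 to 26347581 counts per library. Because the counts are estimates, genes that share sequence with others are uncertain: of a gene's 31-base words, those found in no other gene made up 33.5% for Atp5l, 62.5% for Atp5g2, 65.2% for Uqcrb, 66.8% for Ndufa13 and 68.4% for Ndufb4, and 6% for a second gene named Atp5o, which was not tested.

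Genes passing filterByExpr were scaled with TMM and tested with edgeR 4.0.16 (quasi-likelihood F test, robust, R 4.3.3, limma 3.58.1). The Benjamini-Hochberg adjustment ran over the whole set of tested genes, with a threshold of 0.05. Genotype comparisons used the 12 libraries of a culture type. Osteoclasts against macrophages and the RANK-L interaction used 24. Levels in CPM were scaled over all 36 libraries. Deposited TPM values, which the authors scaled by transcript length, were used for sums and isoform shares. The length-GC offset is a lowess trend (span 0.3) on transcript length and GC content, fitted per library over all genes. Other alternatives were DESeq2 1.42.0, its size factors in edgeR, no filter or a mean of at least 10 counts, limma on log2(TPM + 1), an average length offset, a replicate block, a fit on all 36 libraries, counts per kilobase for shares, and leaving out each library. Tests were checked on simulated data.

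Named genes were the core subunits of complexes I and II, Cyc1, Uqcrfs1, the α and β subunits of the ATP synthase and the isoform pairs of complex IV. To these were added, per comparison, the 3 largest significant changes up and down among genes averaging 10 CPM or more, for an interaction the 3 smallest p, and for other lists the 2 smallest p. Genes outside this rule (those with no call in a comparison, single exceptions, Tfam and Esrra, and genes carried over between comparisons) were chosen after their values were seen. The members and lists were chosen with earlier results of these data known.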

Additional observations from a re-analysis of the deposited data

Results flagged for a closer look

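In 6 of 144 groups of 6 libraries examined for the members described most, 1 library stood apart by Dixon's criterion, which chance meets in about 1 of 20 groups. Null OC replicate 6 was high for Cox7a1, at 4.58 CPM. Ndufa4l2, near 0 outside osteoblast cultures, was highest in wild-type BMM replicate 1 (0.229 CPM), null BMM replicate 5 (0.163 CPM) and null OC replicate 6 (0.15 CPM). Wild-type OB replicate 2 was low for Ndufs1, at 58.8 CPM, and wild-type OC replicate 4 was low for Ndufs8, at 113 CPM.

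The effect of RANK-L differed between the genotypes by the interaction test for 78 members with a lower response in null cultures and 1 with a higher one. The values were -1.73 for Uqcrfs1, -2.09 for Cyc1 and -1.86 for Ndufv1 on the log2 scale. The effect of genotype differed between osteoblast and osteoclast cultures by the second interaction test for 53 members with a higher value in osteoblasts and 3 with a lower one. The values were 1.81 for Uqcrfs1, 1.69 for Uqcrc2 and 1.37 for Sdha.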

How the results depend on the processing

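Counts of members called moved by over 1.5 times mostly with the length-GC offset (trend), alone or with a replicate block; the cause was not tested. In BMM, null against wild type gave 39 higher with trend and block, and 8, 8 and 5 lower with limma on TPM, trend, and trend and block. In OC it gave 2 higher without a filter and in the fit on all 36 libraries, 4 with trend and 3 with trend and block. In OB it gave 7, 1, 11 and 8 higher with limma on TPM, the average length offset, trend, and trend and block, and 36, 6 and 5 lower with limma on TPM, trend, and trend and block. Wild-type OC against BMM gave 1 lower with a mean of at least 10 counts. Null OC against BMM gave 0 higher without a filter and with the replicate block, and 11, 6 and 3 lower with the block, trend, and trend and block. The RANK-L interaction gave 0 higher without a filter, with a mean of at least 10 counts and with the block. OB against BMM gave 46 higher with trend and block, and 18 and 17 lower with trend without and with the block. OB against OC gave 7 higher with trend, with or without the block, and the OB minus OC interaction 5 lower in both. Ndufa7 in wild-type OC against BMM changed sign with trend (-0.19, adjusted p = 0.0262) and with trend and block (-0.19, adjusted p = 0.0106, edgeR).

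Leaving out each library in turn gave 57–62 higher and 3 lower in BMM, 1–2 higher and 69–74 lower in OC, 2 higher and 62–67 lower in OB, 75–76 higher and 2 lower for wild-type OC against BMM, 0–1 higher and 7–43 lower for null OC against BMM, 0–1 higher and 78 lower for the interaction, 68–71 higher and 4 lower for OB against BMM, 14–15 higher and 53–58 lower for OB against OC, and 48–57 higher and 3–4 lower for OB minus OC.

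Of 87 results for named genes, DESeq2 and the other scaling kept the direction and the side of the threshold for 87 each, limma on TPM for 84, trend for 77 (1 reversed) and trend with the block for 76 (1 reversed). With the replicate block 94 of 107 were kept. The labels do not say whether the replicate numbers pair the libraries, and the values do not settle it. At most 3 of 6 same-numbered pairs in a comparison had a correlation of their deviations over 0.1. Between wild-type BMM and wild-type OC, 3 of 6 libraries correlated best with their own number, and between wild-type and null BMM 0 of 6. The isoform shares that passed cannot pass with 6 pairs, where the smallest adjusted p was 0.075. Called genes lost elsewhere include Cox7a1 in null against wild-type BMM (adjusted p = 0.423 with trend). Scaling to TPM shifted the median of all genes by -0.14 in BMM, -0.17 in OC and 0.14 in OB. Genes at about 1 CPM or less, such as Cox4i2 and Cox6a2 in BMM and OC, are limited by depth.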

Other observations

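Ppargc1b was higher in null than in wild-type osteoblast cultures. It had 6.04, 7.57 and 10.02 CPM (lowest, median, highest) in wild-type OB and 11.3, 14.8 and 22.6 CPM in null OB, without overlap, a log2 fold change of 1.09 (edgeR adjusted p = 0.000356). No value with the length-GC offset was computed for Ppargc1b. Over all genes tested in OB, fold change correlated with transcript length at a Spearman rho of 0.55. Of the subunit genes, 65 of 83 were lower in null OB, beside 16.9% of all genes tested. With the length-GC offset 6 were lower and 11 higher, beside 1206 lower and 1083 higher of all 13607 genes tested. Osteoclast markers were also higher in null OB for 5 of 10 genes and lower for 0, with median sums of 4909 CPM in wild type and 5848 CPM in null. Ppargc1b was itself higher in wild-type OC than in BMM, and the part of osteoclast-lineage cells in its OB difference was not tested. In macrophages Ppargc1b differed by 0.46 (edgeR adjusted p = 0.0141).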
